A study of Mus musculus with 32 samples.

Results

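The mouse genes that encode xenobiotic and aldehyde metabolizing enzymes were followed in lung organoid co-cultures treated with fibroblast-derived factors. Enzymes were taken by gene symbol alone: cytochrome P450 genes (Cyp with a family number and letter), glutathione S-transferases (Gst and Mgst), aldehyde dehydrogenases (Aldh, leaving out Aldh18a1), alcohol dehydrogenases (Adh), aldo-keto reductases (Akr), carboxylesterases (Ces), epoxide hydrolases (Ephx), quinone reductases (Nqo), UDP-glucuronosyltransferases (Ugt) and P450 oxidoreductase (Por). Of the 11818 genes in the count table, 73 met this rule. They comprised 16 Cyp, 15 Gst, 14 Aldh, 10 Akr, 5 Ces, 3 Mgst, 3 Adh, 2 Nqo, 2 Ephx and 2 Ugt genes and Por. Flavin monooxygenases (Fmo) and sulfotransferases (Sult) were searched for as well, and 0 rows matched.

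These enzymes work in sequence. Phase I enzymes oxidise, reduce or hydrolyse a foreign or endogenous compound: P450s insert oxygen with electrons passed on by Por, carboxylesterases cleave esters, and alcohol and aldehyde dehydrogenases carry alcohols, retinol and lipid-derived aldehydes on to acids. Phase II enzymes then attach glutathione or glucuronic acid so that the product can leave the cell. In the mouse airway, club cells are known for their high content of P450s such as Cyp2f2, and several of the aldehyde dehydrogenases also make retinoic acid.

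Organoids were grown from CD45-/CD31-/Epcam+ lung epithelial cells of C57BL/6J mice aged 8 to 14 weeks, mixed in equal numbers (300000 of each per well) with CCL206, a line of mouse lung fibroblasts in which division had been stopped with mitomycin C. For 72 h the cultures received vehicle, EVs (vesicle-enriched fractions from the human lung fibroblast line MRC5, 1000000000 particles per mL), SFs (the soluble fraction from the same MRC5 cells, 30 µg/mL) or OGN (osteoglycin, 10 µg/mL), and were then separated with Epcam microbeads into an Epcam+ and a CCL206 fraction. Every culture held both cell populations, so no group shows either cell type alone, and CCL206 is a single line, so its replicates were cultures with the epithelial cells of different mice. With 4 mice, 4 treatments and 2 populations there were 32 libraries in 8 groups of 4, and the mouse number tied the libraries together.

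Total counts ran from 1805914 to 17675454 per library (median 5901652). Every gene in the table had at least 1 count in every library, and 660 genes had a lowest count of 1, so an enzyme that was at 0 in any library is not seen here. Levels are given as CPM, the counts in each 1000000 counts of the library after its size was scaled by TMM, and levels of different genes are compared only as CPM per kilobase of transcript. Each fraction also held genes of the other population. The summed level of 4 epithelial genes (Epcam, Cdh1, Krt8, Krt18) in vehicle CCL206 libraries was 6.72% of that in vehicle Epcam+ libraries, that of 9 alveolar type 2 (AT2) genes was 24.7%, and the summed level of 8 fibroblast genes in Epcam+ libraries was 19.6% of that in CCL206 libraries (Thy1, the ninth on that list, was not in the table). None of 4 endothelial genes was in the table, nor were the leukocyte and macrophage genes Ptprc, Marco, Csf1r and Adgre1.

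Changes were tested with edgeR's quasi-likelihood test with the mouse as a block, within each population, and p-values were adjusted by the Benjamini-Hochberg method over all genes tested (73 of the enzymes among 11716 genes in Epcam+ cells, and 71 among 11689 in CCL206 cells, where Akr1c12 and Gstp2 were too low). An enzyme is said to be higher, lower or changed where the adjusted p was under 0.05. Fold changes are log2 values with their standard error (SE).

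The enzyme content of both populations with vehicle was compared first. Of the 73 enzymes, 36 were higher in Epcam+ cells (35.3% of all genes were) and 20 were higher in CCL206 fibroblasts (34.3% of all genes), which makes 76.7% of the enzymes and 69.6% of all genes. The epithelial side was led by Cyp2f2, the naphthalene-activating P450 of club cells. Its 4 levels were 434.2, 468.9, 469.1 and 357.9 CPM in Epcam+ cells and 19.2, 12.9, 14.3 and 8.91 CPM in CCL206 cells (mice 1 to 4). The groups lay far apart, 31.4-fold (log2 4.98, SE 0.168, adjusted p = 1.48e-19). Adh7, which oxidises retinol and longer alcohols, was 29.7-fold higher in Epcam+ cells (mean 86.6 against 2.82 CPM), and Aldh1a1, a retinal dehydrogenase, was 28.1-fold higher (406.0 against 14.7 CPM).

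The other enzymes with the 10 largest differences toward Epcam+ cells were Cyp2s1 (log2 4.14), Cyp4b1 (3.47), Aldh1a7 (3.44), Gsta1 (2.99), Gsta4 (2.97), Aldh3a1 (2.87) and Gsto1 (2.82). Toward the fibroblasts the 10 largest differences were those of Cyp2c55 (log2 -2.54), the glucuronosyltransferases Ugt1a7c (-2.46) and Ugt1a6b (-2.01), the soluble epoxide hydrolase Ephx2 (-1.97), the carboxylesterase Ces1f (-1.93), the oxysterol hydroxylase Cyp7b1 (-1.82), Cyp2u1 (-1.82), Adh1 (-1.81), the retinoic acid hydroxylase Cyp26b1 (-1.40) and Ces2e (-1.38). All 20 of these held without each mouse in turn and without the mouse block. For Cyp2f2, Adh7 and Aldh1a1 the mean in CCL206 libraries was 3.20%, 3.26% and 3.61% of the epithelial mean, below the 6.72% of the epithelial genes, and above the 2.61% of the airway secretory genes that were in the table (Scgb1a1, Bpifa1 and Hp).

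Per kilobase of transcript, the order of levels differed between the populations. In Epcam+ cells Gsto1, an omega-class transferase, stood first at 597.6 CPM per kb (SD 59.1, n = 4), followed by the aldehyde reductase Akr1a1 at 279.6 (SD 5.17). In CCL206 cells the pi-class transferase Gstp1 stood first at 272.4 CPM per kb (SD 10.2), followed by Akr1a1 at 205.0. Cyp2f2 led the P450s in Epcam+ cells (229.8 CPM per kb), and Cyp1b1, a P450 that metabolises polycyclic hydrocarbons and steroids, led them in CCL206 cells (24.6 CPM per kb). Adh5, Aldh2, Ces1d, Ephx1, Mgst1 and Ugt1a7c led their classes in both populations. Their levels were 56.4, 99.9, 52.5, 43.5, 128.9 and 5.80 CPM per kb in Epcam+ cells and 51.6, 89.2, 24.4, 77.8, 134.4 and 32.2 CPM per kb in CCL206 cells. Nqo1 led the quinone reductases in Epcam+ cells (17.9 CPM per kb) and Nqo2 in CCL206 cells (17.3). Por stood at 164.3 CPM per kb in Epcam+ cells and at 188.1 in CCL206 cells.

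**Figure D1:**
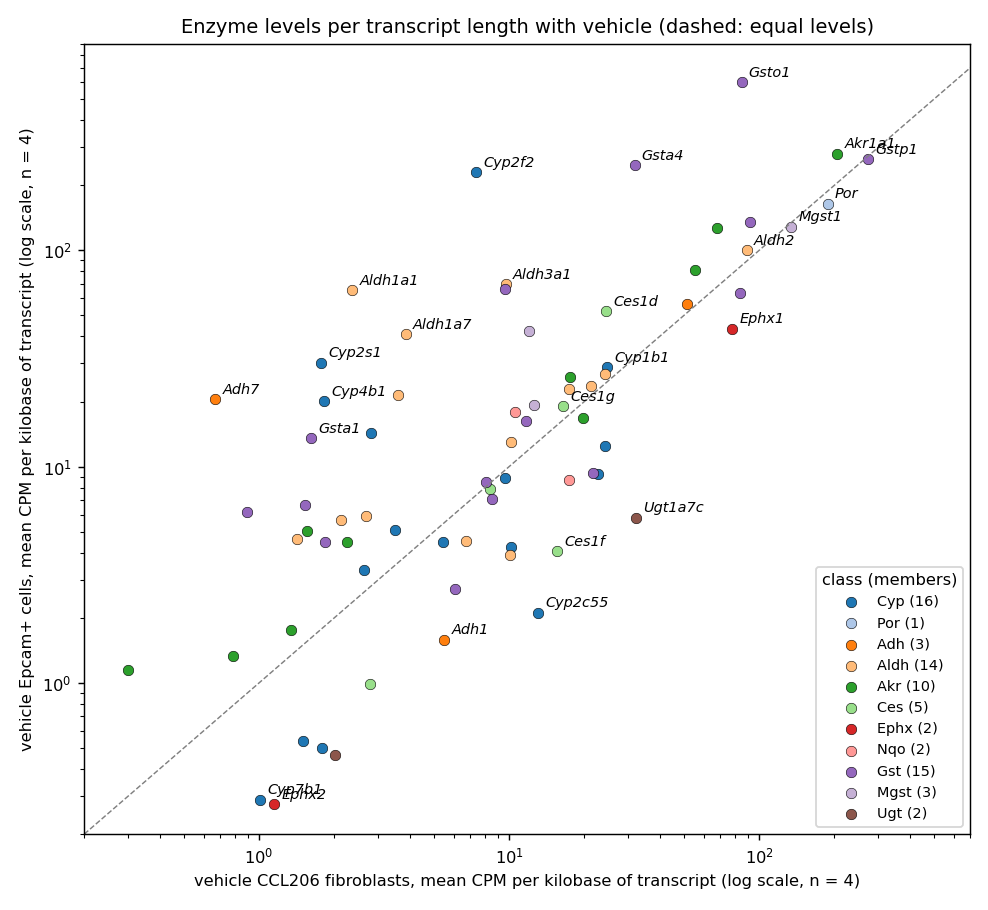
Mean level of each of the 73 enzymes with vehicle, in CPM per kilobase of transcript on log axes, in CCL206 fibroblasts (horizontal) and Epcam+ cells (vertical), coloured by class, with a dashed line of equal levels (n = 4 libraries per population). Cyp2f2, Adh7 and Aldh1a1 lie farthest above the line and Cyp2c55 and Ugt1a7c farthest below it.

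Treatments were compared with vehicle within each population. The 3 treatment comparisons of a population share its vehicle libraries, so they are not independent of each other. In Epcam+ cells, 2 enzymes rose and 13 fell with OGN (20.5% of 73). Of all genes 2.70% changed in that comparison, 1.48% up and 1.22% down. With EVs 0 rose and 8 fell (11%), against 0.888% of all genes (0.538% up and 0.35% down), and with SFs 0 rose and 1 fell (1.37%), against 0.23% (0.154% up and 0.0768% down). In CCL206 fibroblasts, 4 rose and 8 fell with OGN (16.9% of 71), against 4.56% of all genes (2.70% up and 1.86% down). With EVs 15 rose and 3 fell (25.4%), a smaller share than the 36% of all genes (19.8% up and 16.2% down), and with SFs 0 passed, against 0.0599% of all genes, each of which rose. For SFs in CCL206 cells DESeq2 called none either. In edgeR 8 of the 71 enzymes and 621 of all 11689 genes had an unadjusted p under 0.05.

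**Figure D2:**
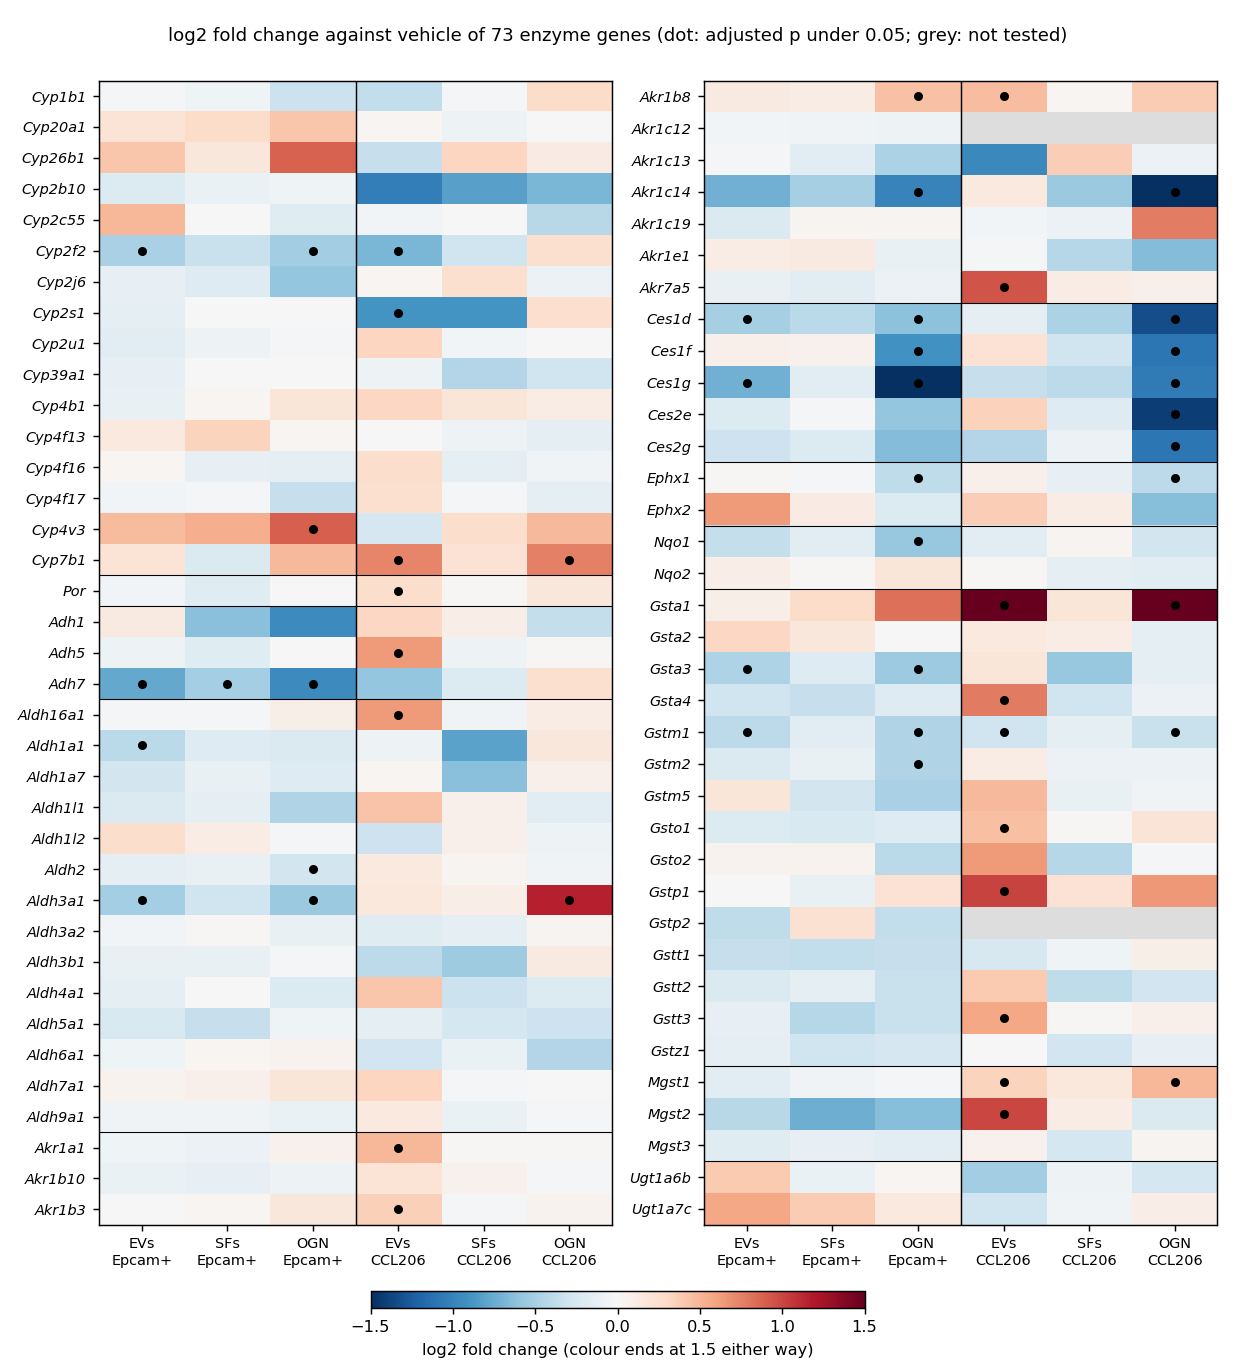
Colour shows the log2 fold change against vehicle of each of the 73 enzymes (rows, grouped by class) for EVs, SFs and OGN in Epcam+ cells and in CCL206 fibroblasts (columns), with a dot where the adjusted p was under 0.05 and grey where a gene was not tested. The Ces rows are blue in both OGN columns, and 15 of 18 dots in the EV column of CCL206 cells are on rises.

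The carboxylesterases were the class with the largest share of members lowered by OGN. Ces1d, a triacylglycerol hydrolase, Ces1f and Ces1g, which is known for its part in triglyceride handling, belong to the Ces1 family, and Ces2e and Ces2g to the Ces2 family. Both families lie on chromosome 8 as tandem copies: in the RefSeq annotation of GRCm38.p6, Ces1d spans chr8:93166072-93197804, Ces1f chr8:93256236-93279766 and Ces1g chr8:93302369-93337209, while Ces2e spans chr8:104926260-104934672 and Ces2g chr8:104961596-104969537. With OGN, 5 of 5 fell in CCL206 cells (median log2 -1.09) and 3 of 5 in Epcam+ cells (median -0.65). Reads of such near copies can be shared in counting, so the split between neighbours is less certain than their sum. The summed Ces level in CCL206 cells was 168 ± 10.0 CPM with vehicle, 157 ± 8.58 with EVs, 133 ± 11.1 with SFs and 74.5 ± 14 with OGN (mean ± SD, n = 4). In Epcam+ cells it was 193 ± 12.4, 140 ± 9.78, 159 ± 13.8 and 108 ± 11.2 CPM.

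Ces1g had the smallest p of the 73 enzymes in the OGN comparison of Epcam+ cells. Its levels there were 46.9, 50.2, 40.6 and 69.2 CPM with vehicle and 13.4, 16.6, 17.0 and 21.8 CPM with OGN (mice 1 to 4). All 4 OGN libraries lay below all 4 vehicle libraries, and below all EV libraries (24.7 to 36.0 CPM) and SF libraries (33.8 to 56.8 CPM) as well. The change against vehicle was log2 -1.54 (SE 0.151, adjusted p = 9.07e-07). Against EVs it was -0.83 (SE 0.150, adjusted p = 0.00243) and against SFs -1.38 (SE 0.152, adjusted p = 1.16e-05), and all 3 held without each mouse and without the block. In CCL206 cells Ces1g stood at 53.9, 41.2, 40.6 and 42.8 CPM with vehicle and at 17.5, 17.8, 28.1 and 21.2 CPM with OGN, again with no overlap (log2 -1.06, SE 0.148, adjusted p = 0.000309). The drop in mean level was 34.5 CPM in Epcam+ cells and 23.5 CPM in CCL206 cells (OGN minus vehicle, -34.5 and -23.5).

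Ces1d was at 111.5, 111.6, 104.5 and 92.9 CPM in vehicle Epcam+ cells and at 56.9, 73.6, 74.7 and 68.3 CPM with OGN. In CCL206 cells it was at 59.3, 41.1, 46.4 and 48.6 CPM with vehicle and at 17.0, 18.4, 26.3 and 15.1 CPM with OGN. Neither pair of groups overlapped. The change was log2 -0.62 (SE 0.0987, adjusted p = 0.000454) in Epcam+ cells and -1.33 (SE 0.174, adjusted p = 0.000167) in CCL206 cells. The difference between these effects, fibroblast minus epithelial, was -0.70 (95% interval -1.11 to -0.29) and did not pass after adjustment (adjusted p = 0.146).

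Ces1f was the carboxylesterase most skewed toward the fibroblasts. There it stood at 35.8, 41.8, 41.97 and 54.2 CPM with vehicle and at 14.7, 19.1, 25.4 and 21.5 CPM with OGN (log2 -1.09, SE 0.137, adjusted p = 0.000116). In Epcam+ libraries it fell from 10.2, 11.6, 10.1 and 13.4 CPM to 6.69, 2.77, 7.01 and 8.07 CPM (log2 -0.90, SE 0.231, adjusted p = 0.0342), a call that was lost without any 1 of the 4 mice (adjusted p from 0.0877 to 0.166) and without the block (adjusted p = 0.140). The groups did not overlap in either population. The epithelial mean of Ces1f with vehicle was 26.1% of the fibroblast mean, close to the 19.6% of the fibroblast genes, so how much of it was made by Epcam+ cells cannot be told apart from fibroblast RNA in that fraction.

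Both Ces2 genes fell in the fibroblasts. Ces2e, which is low, went from 7.08, 8.47, 6.98 and 7.92 CPM to 1.81, 2.91, 3.33 and 3.02 CPM (log2 -1.41, SE 0.248, adjusted p = 0.00231). Ces2g went from 23.5, 25.3, 26.7 and 20.5 CPM to 10.7, 12.3, 11.5 and 10.6 CPM (log2 -1.08, SE 0.194, adjusted p = 0.00268). The vehicle and OGN values of each gene did not overlap. In Epcam+ cells the changes were log2 -0.58 (SE 0.570, adjusted p = 0.745) for Ces2e and -0.65 (SE 0.192, adjusted p = 0.0768) for Ces2g, and neither passed.

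All 5 carboxylesterase calls in CCL206 cells held without each mouse and without the block. Measured against SFs in place of vehicle, 5 of 5 were again lower in CCL206 cells, with log2 changes of -0.79 for Ces1f, -0.85 for Ces1d, -0.67 for Ces1g, -1.21 for Ces2e and -0.99 for Ces2g. Those calls were less stable: without mouse 2 none of the 8 enzyme calls in that comparison remained. No test of the OGN effect between the populations passed for a Ces gene (5 of 5 with adjusted p of 0.146 or more).

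**Figure D3:**
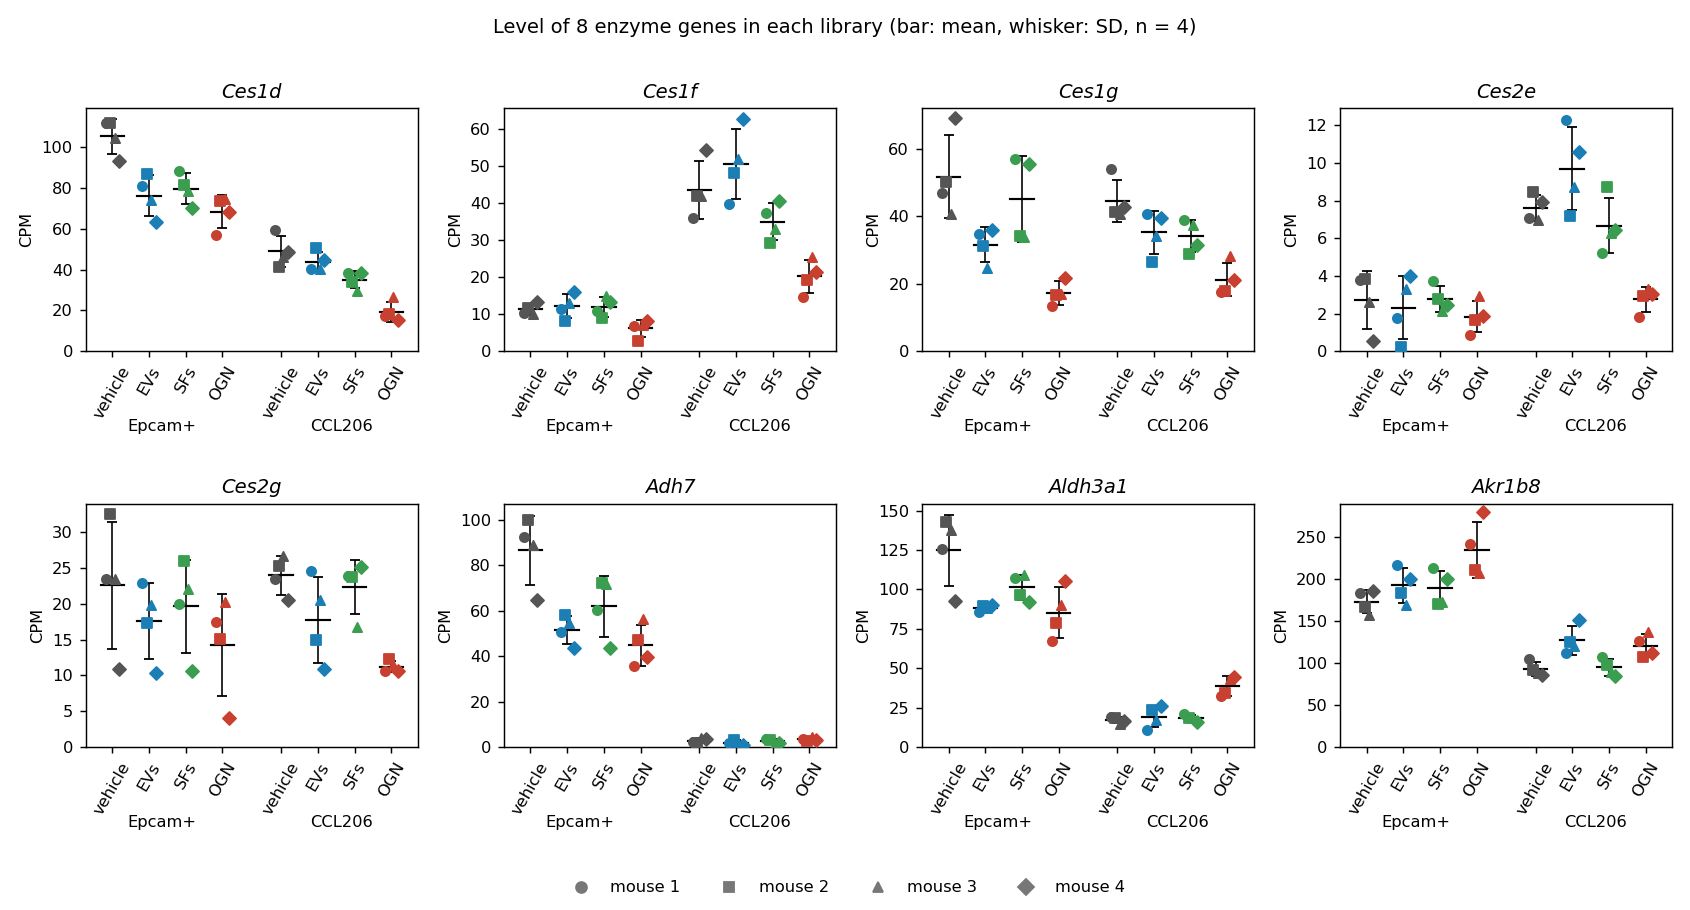
Level in CPM of Ces1d, Ces1f, Ces1g, Ces2e, Ces2g, Adh7, Aldh3a1 and Akr1b8 in each of the 32 libraries, by population and treatment (marker shape: mouse, bar: mean, whisker: SD, n = 4, axes from 0). The OGN points of the Ces1 genes lie below the vehicle points in both populations, whereas Aldh3a1 is lower with OGN in Epcam+ cells and higher in CCL206 cells.

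Promoter entries of the lowered Ces genes are shown because members of a tandem family can share promoter sequence. The RefSeq promoter table of GRCm38.p6 held an entry for Ces1g (chr8:93337210-93337459, minus strand), Ces2e (chr8:104926010-104926259, plus strand) and Ces2g (chr8:104961468-104961717, plus strand). The 250 bases before each start are printed 5′ to 3′ in lower case. In Ces1g the capitals mark the letters of a TATA box (TATAAA) on the opposite strand, beginning 26 bases before the start. In Ces2e and Ces2g they mark the only run of at least 10 bases that both hold.
Ces1g: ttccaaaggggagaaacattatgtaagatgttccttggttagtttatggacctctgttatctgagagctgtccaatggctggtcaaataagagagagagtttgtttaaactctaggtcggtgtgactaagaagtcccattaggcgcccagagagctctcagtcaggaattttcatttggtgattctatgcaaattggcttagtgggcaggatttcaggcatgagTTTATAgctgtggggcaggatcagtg
Ces2e: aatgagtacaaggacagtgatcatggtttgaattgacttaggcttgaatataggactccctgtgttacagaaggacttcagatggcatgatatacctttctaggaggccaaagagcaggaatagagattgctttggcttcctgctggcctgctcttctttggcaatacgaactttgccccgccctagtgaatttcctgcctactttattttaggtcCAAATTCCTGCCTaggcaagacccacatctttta
Ces2g: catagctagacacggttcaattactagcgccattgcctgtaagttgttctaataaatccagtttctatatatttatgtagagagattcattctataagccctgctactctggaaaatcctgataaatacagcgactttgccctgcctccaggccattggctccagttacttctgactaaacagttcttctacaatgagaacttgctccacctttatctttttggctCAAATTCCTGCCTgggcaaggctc
The shared run, CAAATTCCTGCCT, is 13 bases long and starts 34 bases before the Ces2e start and 24 bases before the Ces2g start. The longest run that Ces1g shares with either Ces2 gene is 7 bases. The Ces2g start used here is that of its promoter entry, which ends at chr8:104961717, past the annotated gene start at chr8:104961596. Its run therefore lies inside the annotated gene, while that of Ces2e lies before its gene, so the positions are not alike.

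Of the other enzymes, Adh7 changed most among the alcohol and aldehyde dehydrogenases that passed in Epcam+ cells. It was at 92.6, 100, 89.0 and 64.7 CPM in vehicle Epcam+ cells, at 50.5, 58.0, 54.5 and 43.5 CPM with EVs, at 60.3, 72.3, 71.8 and 43.7 CPM with SFs and at 35.8, 47.2, 56.2 and 39.8 CPM with OGN (mice 1 to 4). The EV and OGN libraries lay below every vehicle library, while the SF libraries overlapped with vehicle. The change was log2 -0.96 (SE 0.110, adjusted p = 7.21e-06) with OGN and -0.76 (SE 0.106, adjusted p = 0.000567) with EVs. With SFs it was -0.51 (SE 0.108, adjusted p = 0.0478). The OGN call held without each mouse and without the block, the EV call held without each mouse but not without the block (adjusted p = 0.0573), and the SF call was lost without any 1 of the 4 mice, without the EV-treated libraries and without the block (adjusted p = 0.665 without the block). OGN was also below SFs (log2 -0.45, SE 0.111, adjusted p = 0.0379), a call lost without mouse 1, 2 or 3 (adjusted p from 0.122 to 0.275), without the EV-treated libraries (0.0767), with only the libraries compared (0.159), with the length trend taken out (0.0515) and without the block (0.287), and OGN against EVs was -0.19 (95% interval -0.42 to 0.03).

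Aldh3a1, which oxidises aromatic and lipid-derived aldehydes, moved in opposite directions. In Epcam+ cells it was at 125.8, 142.8, 137.5 and 92.6 CPM with vehicle and at 67.3, 78.6, 90.0 and 105.2 CPM with OGN, lower in 3 of 4 mice and higher in mouse 4, so the groups overlapped (log2 -0.56, SE 0.125, adjusted p = 0.0126). In CCL206 cells it rose from 19.2, 18.3, 14.7 and 16.8 CPM to 32.4, 34.5, 43.0 and 44.7 CPM in 4 of 4 mice without overlap (log2 1.16, SE 0.198, adjusted p = 0.00167). The difference between these effects, fibroblast minus epithelial, was log2 1.71 (SE 0.236, adjusted p = 0.000142). With edgeR it was the 1 enzyme of 73 (1.37%) whose OGN effect passed the test of a difference between populations, against 0.551% of all genes (0.407% with the larger value in the fibroblasts and 0.144% in the epithelial cells), and its call held without each mouse and without the block. Other fits also called it and added more: DESeq2 called 4 enzymes (with Adh7, Cyp2f2 and Mgst1), the fit without the EV-treated libraries and that with the length trend taken out called 5 each (with Cyp1b1 as well), and the fit of only the libraries compared called 2 (with Adh7), each with the larger value in the fibroblasts. For those fits the share of all genes called is not given here. The Aldh3a1 mean in CCL206 cells with vehicle was 13.8% of the epithelial mean. The summed level of the 4 epithelial genes in CCL206 libraries went from 152 to 392 CPM (median 234) with vehicle to 239 to 463 CPM (median 313) with OGN, and 0 of 4 passed; their part in this rise was not tested.

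Aldh2, the mitochondrial enzyme that clears acetaldehyde, fell slightly in Epcam+ cells, from 435.0, 393.3, 372.0 and 425.4 CPM to 303.3, 322.7, 357.0 and 362.9 CPM with OGN. The groups did not overlap, yet the change of log2 -0.27 (SE 0.0737, adjusted p = 0.0487) was close to the threshold and was lost without any 1 of the 4 mice (adjusted p from 0.0679 to 0.422). Aldh1a1 with OGN was -0.21 in Epcam+ cells (adjusted p = 0.313). With EVs it fell from 434.3, 344.1, 449.9 and 395.8 CPM to 332.8, 297.4, 302.8 and 304.2 CPM (log2 -0.41, SE 0.0912, adjusted p = 0.0315) without overlap.

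Among the P450s, Cyp2f2 fell with OGN in Epcam+ cells to 234.4, 310.5, 343.4 and 325.5 CPM, below all 4 vehicle libraries (log2 -0.53, SE 0.0936, adjusted p = 0.00132). With EVs it was at 273.3, 279.3, 366.6 and 342.4 CPM, which overlapped with vehicle (log2 -0.48, SE 0.0929, adjusted p = 0.0132). Cyp4v3, a fatty acid omega-hydroxylase, rose with OGN from 12.2, 8.04, 11.3 and 19.3 CPM to 24.1, 25.8, 18.7 and 23.9 CPM (log2 0.90, SE 0.211, adjusted p = 0.0177), with overlap at the edges. Cyp7b1 rose with OGN in CCL206 cells from 8.88, 12.5, 11.5 and 12.0 CPM to 17.9, 21.6, 15.8 and 21.1 CPM, without overlap (log2 0.75, SE 0.169, adjusted p = 0.0147). Cyp1b1, a classic target of the aryl hydrocarbon receptor, did not pass with OGN in either population (log2 -0.32, adjusted p = 0.0826 in Epcam+ cells and 0.27, adjusted p = 0.358 in CCL206 cells). Por did not pass either (log2 -0.01 and 0.17).

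Aldo-keto reductases reduce aldehydes and ketosteroids. Akr1b8, an aldose reductase-like enzyme, rose with OGN in 4 of 4 mice of the Epcam+ cells, with a mean of 235.1 CPM against 173.4 CPM with vehicle and no overlap (log2 0.43, SE 0.0730, adjusted p = 0.000767). It was also above EVs (log2 0.30, adjusted p = 0.0219) and above SFs (log2 0.32, adjusted p = 0.0229), but both of these calls were lost without any 1 of the 4 mice (adjusted p from 0.0568 to 0.192), without the block (0.237 and 0.203) and with only the libraries compared (0.103 and 0.142). In CCL206 cells its change with OGN was log2 0.38 (SE 0.119, adjusted p = 0.0975). Akr1c14, a hydroxysteroid dehydrogenase, fell in both populations, from a mean of 13.97 to 6.98 CPM in Epcam+ cells (log2 -1.002, SE 0.237, adjusted p = 0.0191) and from 7.04 to 2.35 CPM in CCL206 cells (log2 -1.49, SE 0.383, adjusted p = 0.0339). The Epcam+ call of Akr1c14 was lost without mouse 1 or 3 (adjusted p = 0.193 and 0.105) and without the block (0.101). Its CCL206 call was lost without any 1 of the 4 mice (adjusted p from 0.0579 to 0.15) and without the block (0.0514). In CCL206 cells with OGN it ranged from 0.227 to 4.19 CPM, and the lowest value was 1 count.

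Of the enzymes that conjugate glutathione, Gstm1 fell in Epcam+ cells from 227.7, 162.7, 177.3 and 176.9 CPM to 135.1, 126.9, 154.6 and 124.0 CPM with OGN, below all vehicle libraries (log2 -0.45, SE 0.0884, adjusted p = 0.00397). Gsta3 fell from 90.5, 104.5, 93.4 and 98.8 CPM to 59.4, 56.6, 65.8 and 86.4 CPM, also without overlap (log2 -0.54, SE 0.107, adjusted p = 0.00456), and Gstm2 by 0.45 on the log2 scale (SE 0.101, adjusted p = 0.0124). Gstm1 was lower in CCL206 cells too (mean 100.1 against 126.3 CPM, log2 -0.34, SE 0.0859, adjusted p = 0.0322), a call lost without any 1 of the 4 mice (adjusted p from 0.083 to 0.222). Gsta1, a low-level alpha-class transferase, rose in CCL206 cells from 1.80, 1.25, 1.12 and 1.58 CPM to 4.99, 3.78, 7.27 and 4.53 CPM, without overlap (log2 1.88, SE 0.353, adjusted p = 0.00363). In Epcam+ cells, where it is 7.93-fold higher with vehicle, its change was log2 0.83 (SE 0.227, adjusted p = 0.0515). Mgst1, a membrane-bound transferase, rose in CCL206 cells from a mean of 160.5 to 226.1 CPM (log2 0.49, SE 0.124, adjusted p = 0.0311). That call was lost without mouse 1, 2 or 3 (adjusted p from 0.0704 to 0.218) and without the block (0.0632).

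Ephx1, the microsomal epoxide hydrolase, fell with OGN in both populations. It went from 171.0, 161.1, 179.1 and 176.6 CPM to 127.2, 132.0, 148.0 and 119.5 CPM in Epcam+ cells (log2 -0.38, SE 0.0850, adjusted p = 0.0126). In CCL206 cells it went from 302.4, 308.1, 298.1 and 321.6 CPM to 250, 238.9, 225.2 and 224.6 CPM (log2 -0.39, SE 0.0814, adjusted p = 0.00797). No OGN library reached the vehicle range in either population. Against EVs and SFs in Epcam+ cells it was also lower (log2 -0.40 and -0.37), but without mouse 1 or mouse 4 neither call held. The Ephx1 call against SFs was also lost without mouse 2 (adjusted p = 0.09) and with only the libraries compared (0.142). Nqo1, the quinone reductase best known as a target of the oxidant-responsive factor NRF2, fell in Epcam+ cells from 54.9, 47.0, 43.7 and 46.3 CPM to 27.8, 30.4, 35.6 and 34.7 CPM (log2 -0.57, SE 0.148, adjusted p = 0.0373) and did not pass in CCL206 cells (log2 -0.28, adjusted p = 0.454). Its Epcam+ call was lost without any 1 of the 4 mice (adjusted p from 0.0526 to 0.313), without the block (0.0911) and without the EV-treated libraries (0.0674).

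Of the 13 enzymes lowered in Epcam+ cells and the 8 lowered in CCL206 cells, 6 were on both lists (46.2% and 75.0%): Ces1d, Ces1f, Ces1g, Akr1c14, Ephx1 and Gstm1. Over all genes, 45 of the 143 lowered in Epcam+ cells and the 217 lowered in CCL206 cells were on both lists (31.5% and 20.7%); the difference from the enzymes' shares was not tested. No enzyme rose in both. The members' median change with OGN was log2 -0.16 in Epcam+ cells, where 54 of 73 values were negative, against a median of -0.003 over all genes, and -0.05 in CCL206 cells, against -0.011. Of the 15 calls in Epcam+ cells, Ces1g, Adh7, Ces1d and Akr1b8 held without each mouse, and 10 held without the block. Without mouse 1 there were 4 calls, and without mouse 3 there were 9. Of the 12 calls in CCL206 cells, 7 held without each mouse (the 5 Ces genes, Aldh3a1 and Gsta1). Without mouse 2 there were 7 calls, and without the EV-treated libraries there were 20. For such alternative fits the share of all genes called is not given here.

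**Figure D4:**
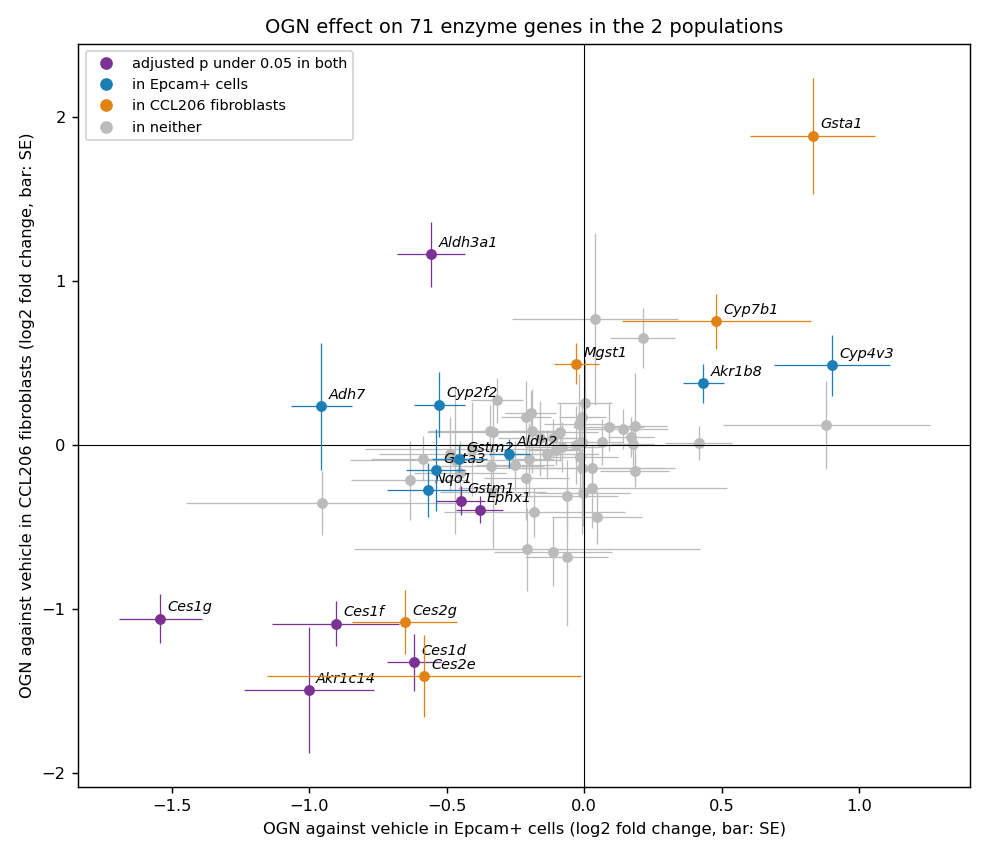
OGN against vehicle as log2 fold change with SE bars, in Epcam+ cells (horizontal) and CCL206 fibroblasts (vertical), for the 71 enzymes tested in both; colours show where the adjusted p was under 0.05. Ces1d, Ces1f and Ces1g lie low on both axes, and Aldh3a1 is the 1 enzyme called in both populations with opposite signs.

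Several markers of airway cells fell with all 3 treatments in Epcam+ cells. Of 7 club and secretory genes, 3 were in the table (Scgb3a2, Scgb3a1, Muc5b and Pigr were not). With OGN Scgb1a1 fell by 0.96 and Bpifa1 by 0.91 on the log2 scale in Epcam+ cells, while Hp, which is also an acute-phase gene, rose by 0.57. Their summed level ranged from 3870 to 4700 CPM with vehicle, 2740 to 3360 with EVs, 2870 to 3850 with SFs and 2360 to 3540 with OGN. Of 5 basal cell genes, 4 were in the table (Krt14 was not), and Krt5, Krt15 and Aqp3 fell with OGN by 0.58, 1.14 and 0.70 on the log2 scale. With SFs Scgb1a1 and Bpifa1 fell by 0.71 and 0.59, and Krt5, Krt15 and Aqp3 by 0.68, 0.91 and 0.69. The median change of the 4 basal genes was log2 -0.68 with SFs and -0.64 with OGN. The summed basal level was 883 to 2560 CPM with vehicle, 602 to 1490 with EVs, 498 to 1500 with SFs and 471 to 1600 with OGN. In these bulk samples fewer cells of a type and less RNA per cell cannot be told apart, and the part of these markers in the fall of Adh7, Cyp2f2 or the other epithelial enzymes was not tested. The 9 AT2 genes summed to medians of 12700 CPM with vehicle, 12100 with EVs, 13900 with SFs and 12700 with OGN. One by one, 2 of the 9 were higher and 0 lower with OGN in Epcam+ cells (log2 from -0.20 to 0.45 over the 9). With EVs 0 were higher and 1 was lower, and with SFs 0 passed.

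In Epcam+ cells treated with EVs, the 8 enzymes that fell were Adh7, Cyp2f2, Aldh1a1 and Aldh3a1, with the carboxylesterases Ces1d and Ces1g and the transferases Gstm1 and Gsta3. Ces1g went to 34.8, 31.1, 24.7 and 36.0 CPM, below all vehicle libraries (log2 -0.72, SE 0.141, adjusted p = 0.0143). Ces1d went to 80.7, 86.8, 74.0 and 63.1 CPM, also without overlap (log2 -0.50, SE 0.0965, adjusted p = 0.0138). Gstm1 changed by log2 -0.39 (adjusted p = 0.0315), Gsta3 by -0.47 (adjusted p = 0.0332) and Aldh3a1 by -0.51 (adjusted p = 0.0459). Only Adh7 held without each mouse: 2 calls were left without mouse 1, 1 without mouse 2 and 1 without mouse 3, and without the block none passed. The summed level of the 8 fibroblast genes in this fraction was 4100 to 4850 CPM with EVs and 2810 to 4090 CPM with vehicle, and 7 of 8 were higher; their part in these changes was not tested. Nqo1 was at log2 -0.35 (adjusted p = 0.358), Gsto1 at -0.20 (adjusted p = 0.448) and Cyp1b1 at -0.03 (adjusted p = 0.967).

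EV-treated CCL206 fibroblasts gave the most enzyme calls of any treatment, but a smaller share than among all genes. Of the 15 that rose, Gstp1 had the smallest p. It went from 239.4, 238.5, 249.0 and 258.1 CPM to 287.1, 543.0, 418.3 and 817.9 CPM (log2 1.02, SE 0.187, adjusted p = 0.00354), without overlap and with a wider spread between mice than with vehicle. Akr7a5, which reduces aflatoxin dialdehyde, went from 22.8, 23.9, 22.99 and 20.7 CPM to 36.3, 46.7, 32.6 and 60.8 CPM (log2 0.95, SE 0.177, adjusted p = 0.00373). The highest level of both was that of mouse 4. The next were Adh5, the glutathione-dependent formaldehyde dehydrogenase (log2 0.64), Gsta1 (1.63), Aldh16a1 (0.64), Mgst2 (1.00), Cyp7b1 (0.73), Akr1b8 (0.46), Gsta4, which conjugates 4-hydroxynonenal (0.78), and Akr1a1 (0.50), with adjusted p from 0.00725 to 0.0155. Gsto1, Gstt3, Akr1b3, Por and Mgst1 also passed as higher, but none of these 5 did with the transcript length trend taken out, where Akr1b3 (log2 -0.08) and Mgst1 (-0.18) turned sign. Gstm1 (log2 -0.30), Cyp2f2 (-0.68) and Cyp2s1 (-0.90) fell. In vehicle CCL206 libraries Gsta1, Gsta4 and Gsto1 were at 11.9%, 12.8% and 14.2% of their epithelial means. Cyp2f2 and Cyp2s1 were at 3.20% and 5.87% of theirs. The summed level of the 4 epithelial genes in CCL206 libraries was 152 to 392 CPM (median 234) with vehicle. With EVs it was 256 to 358 CPM (median 322), and 1 of 4 was higher. The part of epithelial RNA in these changes was not tested.

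These EV calls in the fibroblasts moved with 2 of the 4 mice and with transcript length. Without mouse 2 no enzyme passed, and without mouse 4 there were 3 calls. Across all genes, the log2 change with EVs fell with transcript length in each mouse, with Spearman's rho of -0.289, -0.588, -0.369 and -0.627 (mice 1 to 4, across genes, which are not independent). The 15 enzymes that rose had a median transcript of 1427 nt, the 3 that fell 1882 nt, and the 53 without a call 2859 nt. With the length trend taken out of the counts there were 7 rises and 7 falls in place of 15 and 3. Of the 15 rises, 6 kept their call (Gstp1, Akr7a5, Adh5, Aldh16a1, Cyp7b1 and Gsta4), as did the 3 falls. With only the EV and vehicle libraries fitted, 2 enzymes passed, Gstp1 and Akr7a5.

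**Figure D5:**
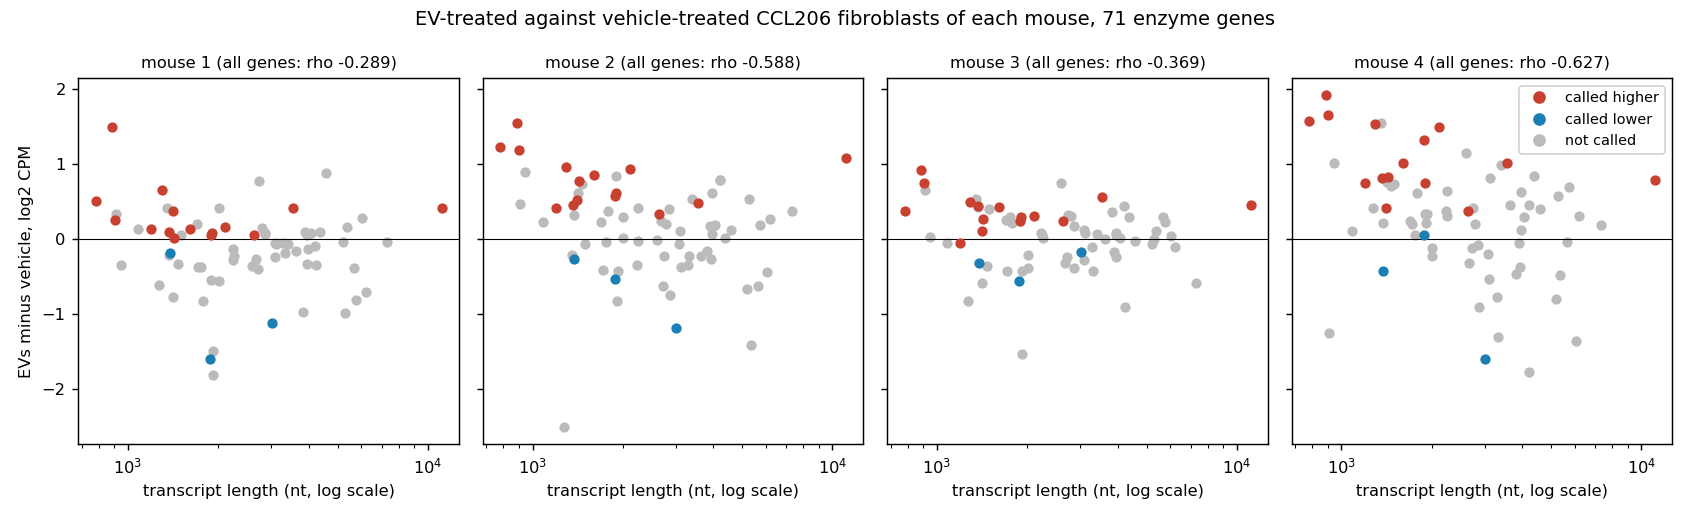
Log2 CPM of EV-treated minus vehicle-treated CCL206 fibroblasts against transcript length (nt, log axis) for the 71 enzymes tested, 1 panel per mouse; red and blue points are enzymes called higher and lower. Short transcripts lie higher than long ones, most steeply in mouse 2 and mouse 4, where rho over all genes was -0.588 and -0.627.

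The EV effect differed between populations for 11 enzymes (15.1% of 73, against 23.8% of all genes, 11.8% positive and 12% negative). Fibroblast minus epithelial, the difference was positive for Mgst2 (log2 1.39), Gsta1 (1.5), Gsta4 (1.05), Akr7a5 (1.03), Gstp1 (0.98), Adh5 (0.70), Aldh16a1 (0.64), Gsto1 (0.63), Akr1a1 (0.53) and Mgst1 (0.46). It was negative for Ugt1a7c (-0.90, adjusted p = 0.0055), the 1 of the 11 that held without each mouse. Ugt1a7c was at log2 0.58 with EVs in Epcam+ cells (adjusted p = 0.0897) and at -0.30 in CCL206 cells (adjusted p = 0.0665). Without mouse 2 there were 3 such enzymes and without mouse 4 there was 1. With the length trend taken out there were 6, of which 4 were among the 11 (Ugt1a7c, Akr7a5, Gsta4 and Aldh16a1), and Mgst1 turned to log2 -0.07. With only the libraries compared there were 5. For SFs no enzyme's effect differed between populations (0% of all genes), and none was called by DESeq2. At an unadjusted p under 0.05 in edgeR there were 5 of the 73 enzymes and 590 of all 11805 genes.

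With SFs few enzymes passed one by one. In Epcam+ cells only Adh7 did, and without mouse 1, 2 or 3 in turn no enzyme passed, while without mouse 4 the 1 call was Cyp2f2. The summed level of the 73 enzymes in Epcam+ cells was 6040 to 6410 CPM with SFs and 6610 to 7170 CPM with vehicle, without overlap. This sum was not tested. The means were 6250 CPM with SFs, 6190 with EVs and 6200 with OGN, and the OGN libraries (5680 to 6840 CPM) overlapped with vehicle. DESeq2 and the fit of only the libraries compared each called 3 enzymes lower with SFs, Adh7, Ces1d and Gsta4. In CCL206 cells 0 passed with edgeR over all treatments and with DESeq2. At an unadjusted p under 0.05 (edgeR) there were 8 of the 71 enzymes and 621 of all 11689 genes. The fit of only the vehicle and SF libraries called 5 lower: Ces1d, Aldh1a1, Aldh1a7, Ces1g and Gsta4. For these other fits the share of all genes called is not given here. The summed Ces level there did not exceed 143 CPM in any SF library and was 158 to 180 CPM with vehicle, without overlap. Over all treatments the lowest p values were those of Aldh1a1 (log2 -0.80, adjusted p = 0.560) and Cyp2s1 (-0.90, adjusted p = 0.697). Ces1d in CCL206 cells was at 38.2, 33.98, 29.5 and 38.3 CPM with SFs, below all vehicle libraries and above all OGN libraries (log2 -0.48, 95% interval -0.84 to -0.12, adjusted p = 0.751).

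OGN was also set against the other treatments, with the same OGN libraries. In Epcam+ cells 1 enzyme was higher and 3 were lower than with EVs (5.48% against 2.22% of all genes, 0.666% up and 1.55% down): Akr1b8 above, and Ces1g, Ces1f (log2 -0.99) and Ephx1 below. Without mouse 1 there was 1 call, and without mouse 3 or mouse 4 there were 2. Against SFs 1 was higher and 4 were lower (6.85% against 1.91%, 0.819% up and 1.09% down): Akr1b8 above, and Ces1g, Ces1f (log2 -0.97), Ephx1 and Adh7 below, with 1 to 3 calls when a mouse was left out. In both comparisons only Ces1g held without each mouse. In CCL206 cells 3 were higher and 5 lower than with SFs (11.3% against 2.79%, 1.91% up and 0.881% down). The 5 were the Ces genes, and the 3 were Aldh3a1 (log2 1.06, adjusted p = 0.0076), Gsta1 (1.70) and Aldh1a1 (0.97, with 1 OGN library, mouse 3, at 30.8 CPM and the others from 11.3 to 12.7 CPM).

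Genes that control or serve these enzymes were read from lists of other pathway genes. Beside the unadjusted counts given for these lists, many genes of the whole table also had an unadjusted p under 0.05 with OGN (edgeR). They were 1540 of 11716 in Epcam+ cells and 1831 of 11689 in CCL206 cells. Of 7 tested genes of the aryl hydrocarbon receptor pathway, 0 passed with OGN in either population by edgeR, with 1 at an unadjusted p under 0.05 in Epcam+ cells and 0 in CCL206 cells; Tiparp, a target of the receptor, was nearest at log2 -0.52 (adjusted p = 0.0999) in Epcam+ cells and -0.36 (adjusted p = 0.321) in CCL206 cells. Of 20 genes of the NRF2 pathway, Slc7a11, the cystine importer, rose in both populations (log2 0.94, adjusted p = 6.9e-08, and 1.65, adjusted p = 2.02e-05) and Gclc, which makes the precursor of glutathione, rose in CCL206 cells (0.50, adjusted p = 0.0273). Hmox1 was at log2 0.33 there (adjusted p = 0.0556), and Gclm at -0.20 in Epcam+ cells (adjusted p = 0.298). Thus 1 of 20 passed in Epcam+ cells, where 2.7% of all genes passed, and 2 of 20 in CCL206 cells, where 4.56% did, so the counts lie near the share over all genes. Nqo1, an enzyme of the same pathway, fell in Epcam+ cells, a call that was lost without any 1 of the 4 mice.

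Of 8 tested nuclear receptors and partners of drug metabolism, 0 passed in either population by edgeR. At an unadjusted p under 0.05 there were 1 in Epcam+ and 3 in CCL206 cells, against 1540 of 11716 and 1831 of 11689 genes. Ppard was at log2 0.26 and 0.30 (adjusted p = 0.340 and 0.121), and Cebpb at -0.92 in CCL206 cells (adjusted p = 0.255). Of 9 retinoid handling genes, 0 passed in Epcam+ cells by edgeR (3 at an unadjusted p under 0.05), where Dhrs3 was at log2 -0.53 (adjusted p = 0.0543) and Rbp4 at 0.50 (adjusted p = 0.0826). In CCL206 cells Rdh10, which makes retinal from retinol, rose (log2 0.50, adjusted p = 0.0148) and the receptor Rarb fell (-0.66, adjusted p = 0.0257). None of 8 efflux transporters passed in either population by edgeR, with 0 and 2 at an unadjusted p under 0.05; Abcc4 was at log2 0.18 (adjusted p = 0.419) and 0.37 (adjusted p = 0.314). Of 12 electron partners and cofactor enzymes, Ugdh, which supplies the glucuronic acid donor, rose in CCL206 cells (log2 0.31, adjusted p = 0.0428), and 0 passed in Epcam+ cells by edgeR (3 at an unadjusted p under 0.05), where Fdxr was at 0.74 (adjusted p = 0.121).

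The promoters of the enzymes were searched for 5 motifs on both strands: an antioxidant response element (TGACNNNGC), the xenobiotic response element core (GCGTG), a C/EBP site (TTGCNNAA), an NF-kB site (GGG and TTCC with 3 free bases between them) and a TATA box (TATAAA). Of the 73 enzymes, 58 had an entry in the table, with 67 starts, and the 250 bases before each start were read. The antioxidant element was found in 5.97% of these and in 10.2% of all 32851 promoters, the xenobiotic core in 26.9% against 28.2%, the C/EBP site in 14.9% against 9.56%, the NF-kB site in 5.97% against 4.65%, and the TATA box in 17.9% against 12.4%. The share with the NF-kB letters depends on their definition: a looser match with 1 G fewer, chosen after seeing the data, was found in 25.4% of the enzymes' promoters and 15.7% of all. A match of letters is a description and not a bound site. The promoters of Adh7 (chr3:138217523-138217772, plus strand) and Gsta1 (chr9:78230419-78230668, plus strand) are shown as examples. Adh7 fell in Epcam+ cells and Gsta1 rose in CCL206 cells, each with both OGN and EVs. They were not alone: Ces1g also fell in Epcam+ cells with both, and Cyp7b1 rose in CCL206 cells with both. In vehicle CCL206 libraries Gsta1 was at 11.9% of its epithelial mean. Its EV call was lost with the length trend taken out (adjusted p = 0.055, edgeR). The Adh7 start used here lies inside the annotated gene (chr3:138198064-138232042). Capitals mark the C/EBP letters beginning 16 bases and the TATA box (on the opposite strand) beginning 202 bases before the start in Adh7, and the NF-kB letters beginning 59 bases before the start in Gsta1.
Adh7: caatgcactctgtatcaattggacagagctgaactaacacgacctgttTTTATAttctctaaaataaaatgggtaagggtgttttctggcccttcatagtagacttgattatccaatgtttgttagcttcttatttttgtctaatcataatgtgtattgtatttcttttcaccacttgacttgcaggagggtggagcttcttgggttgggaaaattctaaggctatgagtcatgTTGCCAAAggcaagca
Gsta1: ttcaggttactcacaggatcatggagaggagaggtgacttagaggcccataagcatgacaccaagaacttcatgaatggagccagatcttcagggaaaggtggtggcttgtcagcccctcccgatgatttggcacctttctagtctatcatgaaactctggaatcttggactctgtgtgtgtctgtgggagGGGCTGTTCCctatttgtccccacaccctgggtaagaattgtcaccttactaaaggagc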

How the data were processed

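RNA sequencing was done on total RNA of the sorted fractions. The authors deposited raw counts per gene in 1 table for all 32 libraries. Per the labels, reads were trimmed with Trimmomatic 0.30 and aligned to GRCm39, whereas the methods of the study name GRCm38; the aligner, the counter, the annotation and the filter behind the absence of genes with a 0 are not given in the sources used here. The study used DESeq2 1.34.0.

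The deposited counts were fitted with edgeR 4.0.16 (R 4.3.3): TMM library sizes, genes kept by filterByExpr, quasi-likelihood tests over the 16 libraries of each population with mouse as a block. The mouse number in the labels paired the libraries. Each treated library's deviation from its group mean was correlated, across genes, with the deviations of the vehicle libraries. With the same mouse the means were 0.0877 to 0.225, and the lowest single value was -0.0545 (EVs in CCL206 cells). With other mice they were -0.0702 to -0.0298. Centring on group means ties these to the opposite sign, so they are no separate evidence of pairing. Both populations were fitted together (32 libraries, 11805 genes) for the comparison between them and for interactions. The biological coefficient of variation was 0.12 in Epcam+ and 0.155 in CCL206 libraries. Levels of 73 enzymes per kilobase used GENCODE vM39 transcript lengths; positions and promoters came from RefSeq. The 48 pairs of replicates all differed beyond counting noise (chi-square over its degrees of freedom was 2.98 or more). The scripts were tested on simulated data.

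The enzymes and the gene lists were chosen with earlier results of these data known. Named were: every enzyme called in a treatment comparison or interaction (the 10 with the smallest p where more were called in a direction), the 10 largest differences each way between populations, the highest enzyme of each class, 10 preset enzymes, and 3 genes of each pathway list per population. Alternatives were fits without the block, DESeq2 1.42.0, RLE size factors, every gene kept, only the libraries compared, the transcript length trend taken out, no EV-treated libraries, and each mouse left out. Near copies (the Ces genes, Gsta1 and Gsta2, Gstp1 and Gstp2, Gstm1 and Gstm2, Aldh1a1 and Aldh1a7, Akr1c12 and Akr1c13, Akr1b8 and Akr1b10, and the Ugt1a genes, which share exons) are uncertain in how reads were split.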

Additional observations from a re-analysis of the deposited data

Results flagged for a closer look

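In 344 groups of 4 libraries (43 enzymes named, 8 groups each), a library stood far from the other 3 (gap over range beyond Dixon's 95% critical value) in 22; chance alone flags about 5%. In Epcam+ cells with EVs these were Akr1c14 in mouse 2 (4.57 CPM, others 9.39 to 10.1), Ephx2 in mouse 2 (3.88), Aldh16a1 in mouse 4 (48.5) and Gstm2 in mouse 4 (65.9). With SFs they were Cyp1b1 (177 CPM) and Cyp2c55 (6.61) in mouse 4 and Aldh16a1 (58.0) and Gstt3 (6.63, others 13 to 13.2) in mouse 2. With OGN they were Akr7a5 (37.9), Gstp1 (352, others 242 to 259) and Por (514, others 402 to 412), each in mouse 4.

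In CCL206 cells with vehicle, mouse 1 stood apart for Aldh2 (341 CPM), Ces1g (53.9) and Cyp4v3 (12.3). With EVs, mouse 1 stood apart for Ephx2 (11.3) and Gstm1 (112) and mouse 2 for Nqo1 (31.5). With SFs, Ces2g was low in mouse 3 (16.7) and Gsta3 high in mouse 1 (12.9). With OGN, Adh5 was low in mouse 2 (74.6, others 87.0 to 88.5), Aldh1a1 high in mouse 3 (30.8, others 11.3 to 12.7) and Gstm1 high in mouse 4 (109).

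The interaction test found treatment effects that differed between populations (log2, fibroblast minus epithelial effect). With EVs they were Akr7a5 (1.03), Ugt1a7c (-0.90), Mgst2 (1.39), Gsta4 (1.05), Gstp1 (0.98), Adh5 (0.70), Gsto1 (0.63), Gsta1 (1.5), Akr1a1 (0.53), Aldh16a1 (0.64) and Mgst1 (0.46). With OGN it was Aldh3a1 (1.71).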

How the results depend on the processing

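The number of enzymes called, out of 73 in Epcam+ and 71 in CCL206 libraries, depended on the fit in every treatment comparison. The share of all genes called under each alternative is not given here. A change in these counts therefore cannot be told from a change over all genes. Without the mouse block it went from 8 to 0 for EVs, 1 to 0 for SFs, 4 to 2 for OGN against EVs and 5 to 1 for OGN against SFs in Epcam+ cells, and the block moved no other count by over 1.5 times. DESeq2 called 3 for SFs in Epcam+ cells and 4 for the OGN interaction (main values 1 and 1). With only the libraries compared there were 3 for SFs and 1 for OGN against SFs in Epcam+ cells, 2 for EVs (main value 18), 5 for SFs (0) and 17 for OGN against SFs (8) in CCL206 cells, and 5 and 2 for the EV and OGN interactions (11 and 1). Without the EV-treated libraries there were 0 for SFs and 2 for OGN against SFs in Epcam+ cells, 20 for OGN (12) and 18 for OGN against SFs in CCL206 cells, and 5 for the OGN interaction. With the length trend taken out the interactions gave 6 (EVs) and 5 (OGN).

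With 1 mouse left out at a time, the counts ran from 1 to 8 for EVs, 0 to 1 for SFs, 4 to 16 for OGN, 1 to 4 for OGN against EVs and 1 to 3 for OGN against SFs in Epcam+ cells. They ran from 0 to 18 for EVs, 7 to 9 for OGN and 0 to 4 for OGN against SFs in CCL206 cells, from 1 to 15 for the EV interaction and from 1 to 2 for the OGN interaction. The count between populations (56) moved by less than 1.5 times under each alternative. With the length trend taken out, 4 log2 changes with EVs in CCL206 cells turned sign (Akr1b3 to -0.078, Mgst1 to -0.18, Aldh1a1 to 0.23, Aldh3a1 to -0.18), as did Gsto1 (-0.008) and Por (-0.001) with SFs in CCL206 cells and the EV interaction of Mgst1 (-0.07). The cause was not tested.

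With 1 mouse left out, 11 small log2 changes that had not passed turned sign: in Epcam+ cells Por with EVs (-0.105 to 0.031) and OGN (-0.13 to 0.042) and Cyp1b1 with SFs (-0.14 to 0.006). In CCL206 cells they were Aldh1a1 (-0.22 to 0.16) and Aldh3a1 (-0.021 to 0.422) with EVs, Aldh1a1 with OGN (-0.14 to 0.45), and Adh7 (-0.56 to 0.18), Cyp1b1 (-0.07 to 0.006), Gsto1 (-0.036 to 0.062), Nqo1 (-0.036 to 0.139) and Por (-0.038 to 0.051) with SFs. Depth limits the low enzymes most: Ces2e and Akr1c14 had libraries with 1 count. With 4 cultures per group, each p-value rests on a spread estimated over all libraries of its fit, not only over the groups compared.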

Other observations

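The summed level of the 73 enzymes in Epcam+ cells was 6920 ± 258 CPM with vehicle, 6190 ± 99.3 with EVs, 6250 ± 172 with SFs and 6200 ± 506 with OGN (mean ± SD, n = 4 mice). In CCL206 cells it was 3960 ± 55.0 CPM with vehicle, 4790 ± 746 with EVs, 3890 ± 144 with SFs and 4110 ± 202 with OGN, and the EV group had the widest spread.

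Of the remaining marker lists, the 6 alveolar type 1 genes in the table (Rtkn2 was not) summed in Epcam+ cells to a median of 1850 CPM with vehicle and 1680 CPM with OGN, and Ager, Hopx and Cav1 fell with OGN by 0.52, 0.64 and 0.67 on the log2 scale. The 4 ciliated cell genes in the table (Ccdc153 and Rsph1 were not) summed to medians of 1050 and 1030 CPM. Of 6 macrophage genes, 2 were in the table, and Lyz2, which AT2 cells also express, rose with OGN in Epcam+ cells by log2 0.69 (adjusted p = 2.72e-05, edgeR) and in CCL206 cells by 1.03 (adjusted p = 0.00741). In CCL206 cells the 3 airway secretory genes in the table summed to a median of 120 CPM with vehicle and 365 CPM with OGN, where Hp was at log2 2.26 (adjusted p = 8.76e-06) and Scgb1a1 at -0.55 (adjusted p = 0.444).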
